A study of Mus musculus with 62 samples.

Results

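Levels of 8 genes that mark GABAergic neurons and their interneuron classes were followed across 5 regions of the mouse brain and after ethanol. The genes were taken by symbol from a table of 56415 genes, and all 8 were found there. Gad1 and Gad2 encode the glutamate decarboxylases that make GABA, and Slc32a1 encodes the vesicular transporter that loads it. Pvalb, Sst, Vip, Lamp5 and Reln encode parvalbumin, somatostatin, vasoactive intestinal peptide, a lysosome-associated membrane protein and the secreted protein reelin, and each is used to name interneuron classes. GABA is the main inhibitory transmitter of the forebrain. In the cortex and hippocampus the cells that release it are mostly interneurons, a minority among excitatory neurons, while in the striatum the projection neurons release it as well, so that Gad1, Gad2 and Slc32a1 mark a far larger share of striatal neurons than the class markers do. Pvalb is also known from neurons of the globus pallidus and the thalamic reticular nucleus, and Reln from Cajal-Retzius cells.

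RNA came from adult male C57BL/6J mice aged 8 to 10 weeks. Each of 16 mice received either saline or ethanol at 2 g/kg by intraperitoneal injection, as 1 dose (acute) or as 10 daily doses (chronic), and tissue was taken 4 h after the last dose from the cortex, the dorsal hippocampus (dHPC), the ventral hippocampus (vHPC), the dorsal striatum (DS) and the ventral striatum (VS). These 62 libraries form 20 groups, 1 for each region, paradigm and treatment, with 3 mice in most and 4 in the acute ethanol dHPC and chronic ethanol DS groups. Saline mice received the same volume on the same schedule. Regions were cored by hand from frozen coronal slices, so a core can take in neighbouring tissue.

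Library totals lay between 8149628 and 71164766 counts. The median was 51703961 counts for cortex and 48892266 for dHPC, and 14530176 for vHPC, 13091491 for DS and 14524117 for VS, so low genes such as Vip were measured less precisely in the last 3 regions. Cortex and dHPC libraries were made with a kit that does not keep strand and sequenced on another instrument than the directional libraries of vHPC, DS and VS, so levels on the 2 sides of that divide were set side by side without a test. The chronic saline DS library of mouse 2 had 0 counts for every gene of chromosomes 7, 8, 9, X, Y and MT, and its last covered position on chromosome 6 was 23052915. None of the 8 genes lies there, but its counts are shared out over fewer genes, so it was left out of region comparisons and its weight in DS ethanol comparisons is given beside them. Of 12 striatal projection neuron genes, all were called higher in DS than in vHPC and all in VS than in vHPC. Their summed level was 5831 to 11191 CPM in DS libraries, 3671 to 8014 in VS, 452 to 601 in cortex and 468 to 2081 in vHPC, while in dHPC it was 449 to 1402 except in the chronic saline library of mouse 5, at 3681. Each of the 8 genes had counts in all 62 libraries, and the lowest count of any was 6, for Vip.

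By position in GRCm39, Gad1 (ENSMUSG00000070880, chr2:70383416-70432358), Gad2 (ENSMUSG00000026787, chr2:22512217-22583886), Slc32a1 (ENSMUSG00000037771, chr2:158452687-158457668) and Lamp5 (ENSMUSG00000027270, chr2:135894159-135911837) lie on the plus strand of chromosome 2. Vip (ENSMUSG00000019772, chr10:5589218-5597617) is on the plus strand of chromosome 10. Pvalb (ENSMUSG00000005716, chr15:78075314-78090600), Sst (ENSMUSG00000004366, chr16:23708323-23709708) and Reln (ENSMUSG00000042453, chr5:22089452-22549700) are on minus strands. All are annotated as protein coding, and their counts cover the exons of each gene as a whole.

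Promoters are shown for Sst, Vip and Gad2. Of the 8 genes, only these 3 held the half-site TGACG of the cAMP response element in their promoter window, on either strand. They were also chosen because all 3 later passed the test in DS after acute ethanol, Sst and Vip lower and Gad2 higher. Pvalb and Lamp5 passed that test too, and none of their windows held the half-site. Each window runs from 250 bases before to 50 bases after the gene start, 5′ to 3′ on the gene's strand, from RefSeq in the GRCm38.p6 build, which is older than the build of the counts. Capitals mark the half-site or, in Sst, the full element TGACGTCA, in which half-sites of both strands overlap.
Sst, chr16:23890795-23891094, minus strand: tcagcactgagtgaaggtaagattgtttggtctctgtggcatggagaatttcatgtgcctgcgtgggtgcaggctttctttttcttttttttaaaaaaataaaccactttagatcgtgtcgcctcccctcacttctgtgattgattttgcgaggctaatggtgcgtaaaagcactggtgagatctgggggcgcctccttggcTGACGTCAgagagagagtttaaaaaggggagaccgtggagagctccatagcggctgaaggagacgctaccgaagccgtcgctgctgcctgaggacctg
Vip, chr10:5638968-5639267, plus strand: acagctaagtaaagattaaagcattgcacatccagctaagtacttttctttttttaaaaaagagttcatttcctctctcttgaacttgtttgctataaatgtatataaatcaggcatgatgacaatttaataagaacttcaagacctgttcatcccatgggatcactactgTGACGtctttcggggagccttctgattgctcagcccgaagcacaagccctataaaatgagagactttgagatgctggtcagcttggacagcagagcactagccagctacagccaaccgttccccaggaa
Gad2, chr2:22622077-22622376, plus strand: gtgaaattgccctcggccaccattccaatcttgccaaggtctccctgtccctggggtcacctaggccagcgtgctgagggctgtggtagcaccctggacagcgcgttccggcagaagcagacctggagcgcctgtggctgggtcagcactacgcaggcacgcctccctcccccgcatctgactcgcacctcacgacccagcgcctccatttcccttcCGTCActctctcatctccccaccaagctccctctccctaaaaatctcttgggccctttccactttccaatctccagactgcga
The marked run starts 48 bases before the Sst start, 79 before that of Vip and, as CGTCA, 33 before that of Gad2. Of 32851 promoter windows in the same table, 20.8% held TGACG or its reverse complement and 1.79% held TGACGTCA, so the half-site is common. TATAAA, on either strand, was in the Gad1 and Vip windows and in 13.6% of all. The E-box CACGTG was in the Reln window and in 7.15% of all, and TAATTA, a core that homeodomain factors bind, was in none of the 10 windows listed for the 8 genes and in 5.29% of all. These are matches of letters in a short window and were not tied to any measured binding.

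The first question was where each gene was expressed without ethanol. Levels are given as CPM, a gene's share of its library on the usual per-million scale, after trimmed-mean (TMM) scaling, over the saline libraries of both paradigms, as mean ± SD (n = 6 mice per region, 5 in DS). The GABA synthesis and transport genes were highest in the striatum. Gad1 was at 536 ± 84.1 CPM in VS, 486 ± 47.1 in DS, 319 ± 23.9 in cortex, 294 ± 45.1 in vHPC and 260 ± 29.0 in dHPC. Gad2 had a wider spread of levels, from 544 ± 122 CPM in VS and 384 ± 37.1 in DS to 160 ± 31.4 in vHPC, 155 ± 34.7 in dHPC and 129 ± 5.12 in cortex. Slc32a1 followed the same division, with 269 ± 40.9 CPM in VS and 211 ± 34.5 in DS, against 103 ± 9.68 in cortex, 90.9 ± 31.2 in dHPC and 82.3 ± 16.2 in vHPC. The ranges of DS and VS overlapped for all 3 genes, as did those of the other 3 regions for Slc32a1 and those of the 2 hippocampal regions for Gad2.

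The class markers each had their own order. Lamp5 stood at 262 ± 39.3 CPM in cortex, far above 72.0 ± 10.4 in VS and 67.1 ± 12.9 in DS, which overlapped, and 39.8 ± 6.63 in dHPC and 33.1 ± 8.51 in vHPC, which also overlapped. Vip was at 34.7 ± 6.63 CPM in cortex and below 10 on average elsewhere, with 8.10 ± 2.46 in dHPC and 6.48 ± 3.04 in vHPC, then 5.77 ± 2.21 in DS and 4.44 ± 3.32 in VS, with overlapping ranges in those 4 regions. Pvalb was at 59.0 ± 13.0 CPM in cortex, 32.4 ± 19.7 in vHPC and 22.4 ± 4.04 in dHPC, then 11.3 ± 2.94 in DS and 10.1 ± 4.40 in VS. The vHPC spread of Pvalb came from a range of 17.5 to 69.7 CPM, and the highest value belonged to the acute saline library of mouse 2.

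Sst varied least between regions, with 159 ± 43.6 CPM in VS, 105 ± 12.1 in cortex, 101 ± 18.3 in DS, 91.7 ± 12.2 in dHPC and 78.8 ± 25.2 in vHPC. Its ranges overlapped between every pair of neighbours in that order. Reln was highest in DS, at 158 ± 35.3 CPM, then VS at 121 ± 42.2, cortex at 81.5 ± 8.85, vHPC at 77.7 ± 14.9 and dHPC at 62.3 ± 9.61. The 4 genes listed for Cajal-Retzius cells summed to at most 8.96 CPM in any DS library and 6.56 in any VS library, and to 6.15 to 12.4 CPM in vHPC. In DS, 3 of those 4 were called lower than in vHPC.

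**Figure D1:**
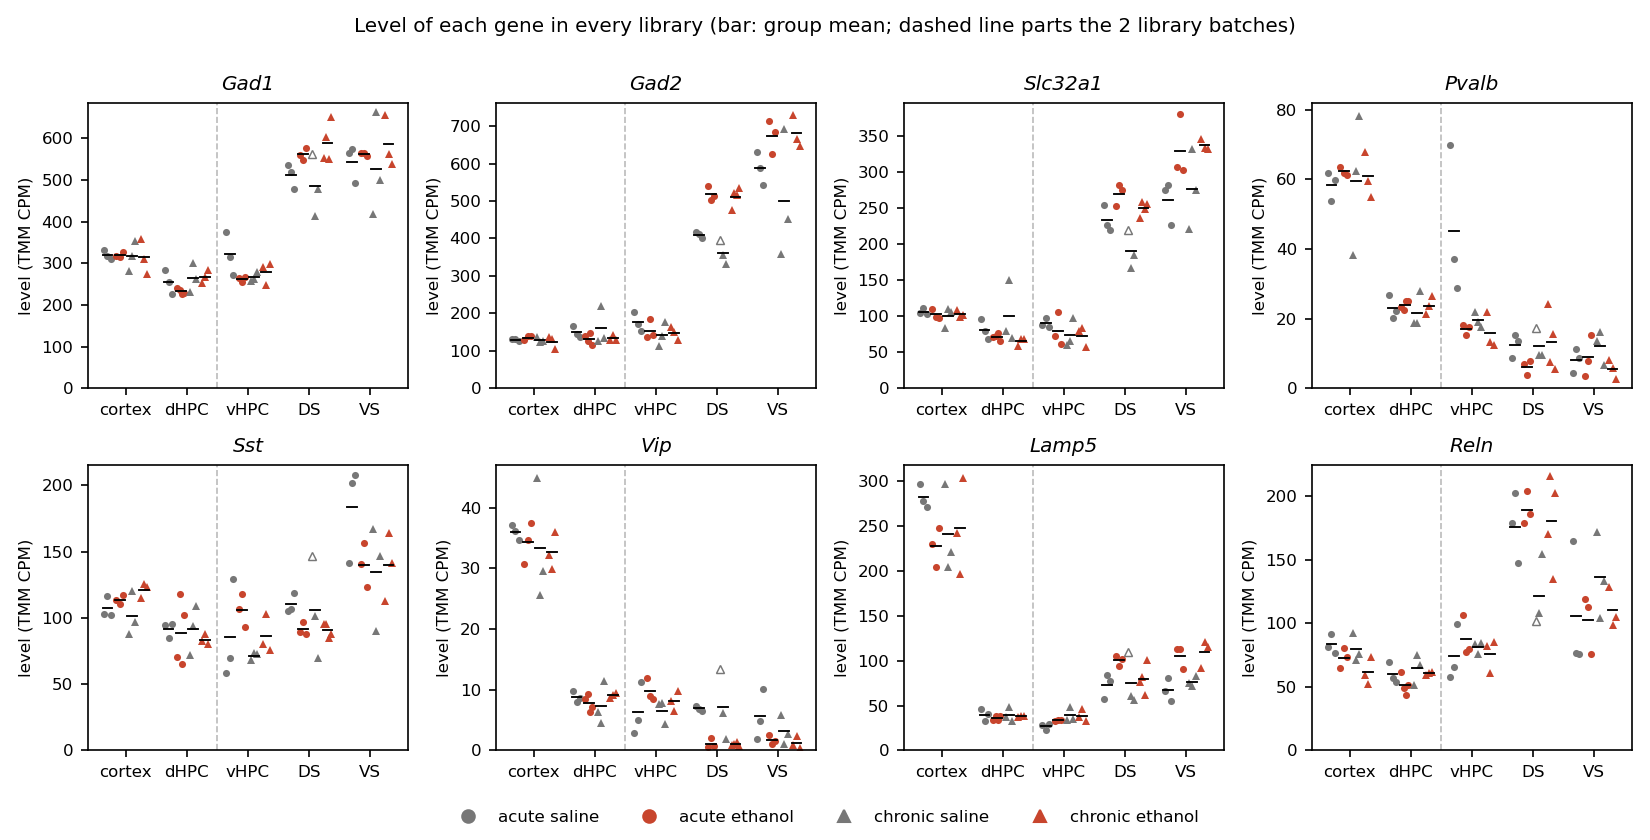
Level of each gene (TMM-scaled CPM, linear axis from 0) in each of 62 libraries, by region, with circles for acute, triangles for chronic, grey for saline and red for ethanol, and a bar at each group mean. The open grey triangle is the chronic saline DS library that lacks several chromosomes. Gad1, Gad2 and Slc32a1 are highest in DS and VS, while Lamp5 and Vip are highest in cortex, and Vip in DS is low in all 7 ethanol libraries.

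To compare genes with each other, levels were divided by the length of all annotated exons of each gene. On that scale Sst was the most abundant of the 8 in every region, from 109 ± 35.0 CPM per kb in vHPC to 221 ± 60.4 in VS. In cortex it was followed by Lamp5 at 89.3 ± 13.4 CPM per kb and Pvalb at 56.7 ± 12.5, then Gad1 at 41.7 ± 3.13 and Slc32a1 at 36.9 ± 3.46. In DS the order after Sst was Slc32a1 at 75.3 ± 12.3 CPM per kb, Gad2 at 65.3 ± 6.31 and Gad1 at 63.6 ± 6.16, which did not differ beyond their spread, with Pvalb at 10.9 ± 2.83. Vip was the lowest of the 8 per kb in all regions but cortex, where Reln was at 3.43 ± 0.37 CPM per kb and Vip at 10.2 ± 1.95. The order depends on the length used, since the exons of Gad1 add up to 7639 bases and those of Reln to 23738 over all their isoforms, while the isoforms to which most of their reads could be assigned have 3355 and 11699. With the length of that isoform for each gene, a choice made after seeing the data, Gad1 was at 145 ± 14.0 CPM per kb in DS and Sst at 139 ± 25.4, which did not differ beyond their spread, and in cortex Gad1, at 94.9 ± 7.12, passed Pvalb, at 60.4 ± 13.3. Sst remained the highest in the other 4 regions.

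Region differences were tested between saline libraries made with the same kit (edgeR's quasi-likelihood test over all genes, paradigm as a term, called at a Benjamini-Hochberg adjusted p, FDR, below 0.1). In bulk tissue, fewer cells of a class and less RNA per cell cannot be told apart, here and below. Nor can the cells that express a gene such as Lamp5 be named, so its level need not be that of an interneuron class. Of the 8 genes, 6 were called between cortex and dHPC, all higher in cortex, where 55.3% of 27224 genes were called. Lamp5 ran from 205 to 297 CPM in cortex (median 275) and from 32.5 to 48.6 in dHPC (median 39.1), a 6.79-fold difference (log2 fold change 2.76 ± 0.12 SE, FDR = 1.84e-10). Vip ran from 25.7 to 44.8 CPM in cortex (median 35.4) and from 4.51 to 11.4 in dHPC (median 8.32), which is 4.44-fold (2.15 ± 0.18, FDR = 2.00e-07). Pvalb was 2.72-fold higher in cortex (1.44 ± 0.15, FDR = 1.41e-06), from 38.1 to 78.2 CPM against 18.6 to 27.8.

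None of these 3 genes overlapped between the regions. Here and below, the share of all genes without overlap was not counted. The other called genes differed by less: Reln by 0.44 ± 0.10 on the log2 scale (FDR = 0.00175), Gad1 by 0.34 ± 0.07 (FDR = 0.00106) and Sst by 0.24 ± 0.09 (FDR = 0.0478). Sst rests on the set of mice, since without the acute saline cortex library of mouse 4, the chronic saline cortex library of mouse 5 or the chronic saline dHPC library of mouse 2 its FDR was 0.109, 0.126 and 0.101. Gad2 was not called (log2 fold change -0.21, FDR = 0.129). With mouse as a block, it was lower in cortex by -0.30 at FDR = 0.0619. Slc32a1 was not called either (0.24, FDR = 0.233). The chronic saline dHPC library of mouse 5 had the highest Gad2 and Slc32a1 of that region, 220 and 151 CPM, together with a striatal projection neuron sum of 3681 CPM against 494 and 1060 in the other chronic saline dHPC libraries, and the part of this in either value was not tested.

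Between DS and vHPC, 6 of the 8 genes were called, against 41.6% of 20669 genes. Slc32a1 was higher in DS by 1.29 ± 0.11 on the log2 scale (FDR = 1.35e-06), Gad2 by 1.22 ± 0.10 (FDR = 9.98e-07) and Gad1 by 0.68 ± 0.08 (FDR = 2.93e-05). Lamp5 was higher by 1.03 ± 0.17 (FDR = 0.000293) and Reln by 0.98 ± 0.16 (FDR = 0.000314). Pvalb went the other way, from 8.62 to 15.4 CPM in DS and 17.5 to 69.7 in vHPC (log2 fold change -1.52 ± 0.24, FDR = 0.000243). Its ranges did not meet. Sst (0.30) and Vip (-0.24) were not called.

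Between VS and vHPC, 7 genes were called, against 39.1% of 20978 genes. Gad2 differed most among the higher ones, running from 358 to 693 CPM in VS (median 566) and from 114 to 203 in vHPC (median 162), or 1.72 ± 0.15 on the log2 scale (FDR = 7.66e-07). Slc32a1 followed at 1.66 ± 0.13 (FDR = 4.14e-07), then Lamp5 at 1.09 ± 0.12 (FDR = 7.77e-06), Sst at 0.96 ± 0.19 (FDR = 0.00116) and Gad1 at 0.82 ± 0.11 (FDR = 4.47e-05). Reln was higher by 0.58 ± 0.20 (FDR = 0.0372), but without the acute saline VS library of mouse 2 the difference was 0.39 at FDR = 0.122. Pvalb was lower in VS (-1.62 ± 0.36, FDR = 0.00313). Vip was not called (-0.61, FDR = 0.338), but was at -1.60 with FDR = 0.000752 when the ethanol libraries shared the fit.

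Between DS and VS, where 9.88% of 20665 genes were called, 2 of the 8 were called, both lower in DS. Sst had 70.1 to 119 CPM in DS (median 105) and 90.3 to 208 in VS (median 157), a log2 fold change of -0.66 ± 0.15 (FDR = 0.0238). Gad2 had 333 to 416 CPM in DS (median 401) and 358 to 693 in VS (-0.49 ± 0.13, FDR = 0.0399). These ranges overlapped for both genes. Both calls were lost when the incomplete DS library was kept (FDR = 0.345 for Sst and 0.201 for Gad2), and Gad2 was at FDR = 0.116 without the chronic saline DS library of mouse 6. Slc32a1 was at -0.34 ± 0.12 with FDR = 0.111, and with mouse as a block at -0.26 with FDR = 0.0854. The others were not called, with Gad1 at -0.12, Lamp5 at -0.07, Pvalb at 0.23, Vip at 0.33 and Reln at 0.43.

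**Figure D2:**
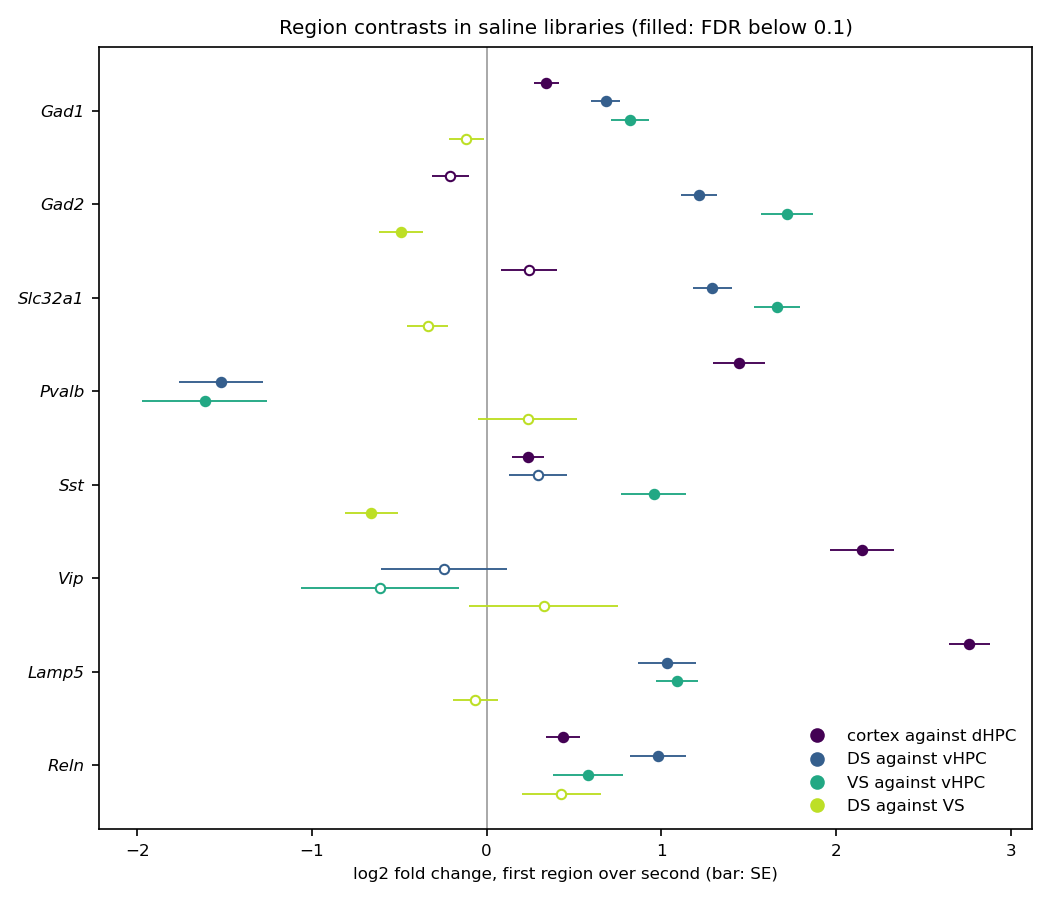
Log2 fold change between regions in saline libraries (points, with SE as bars) for each gene in 4 comparisons, filled where FDR was below 0.1. Gad1, Gad2, Slc32a1 and Lamp5 lie to the right in both striatal comparisons with vHPC and Pvalb to the left, while Lamp5, Vip and Pvalb lie farthest to the right between cortex and dHPC.

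Other genes of these pathways showed where the 8 markers did not speak for all. Of 22 other interneuron genes, 8 were higher and 7 lower in VS than in vHPC and 7 were higher and 8 lower in DS than in vHPC, with median log2 fold changes of 0.13 and -0.08 beside 0.04 and 0.03 over all genes. The smallest p-values there went to Tac1, the precursor of substance P (4.55 ± 0.22 in DS), Cck (-1.80 ± 0.14), the potassium channel gene Kcnc1 (-1.26 ± 0.10) and Chat, the acetylcholine-making enzyme (5.24 ± 0.47). In DS against vHPC, all 12 striatal projection neuron genes were also called higher and 5 of 8 pallial excitatory neuron genes lower. Their part in these values was not tested. Of 16 transcription factors of GABAergic neurons, 11 were higher and 5 lower in DS than in vHPC and 10 and 5 in VS, led by Dlx6 (2.95 ± 0.20 in DS and 2.91 ± 0.20 in VS) and Dlx5 (2.18 ± 0.20 and 2.43 ± 0.18). Of 9 tested genes of GABA synthesis, transport and breakdown, 1 was higher and 5 lower in DS than in vHPC (median -0.21), and 1 was higher and 3 lower in VS (median -0.25). The higher one was the GABA transaminase gene Abat, in DS (0.74 ± 0.07) and in VS (0.93 ± 0.10). Between cortex and dHPC, 6 of 10 such genes were higher in cortex and none lower. Over all genes, the share called in either direction was 55.3% there, 41.6% between DS and vHPC and 39.1% between VS and vHPC.

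Between cortex and dHPC, 8 of the 22 other interneuron genes were higher in cortex and 7 lower (median -0.14 beside -0.01 over all genes), with Npy (1.06 ± 0.06), Crh (2.37 ± 0.16) and Kcnc1 (0.90 ± 0.05) higher and Nos1 (-1.12 ± 0.08) lower. Of the 16 transcription factors, 7 were higher and 5 lower, with Maf at 1.11 ± 0.05 and Prox1, which dentate granule neurons also express, at -3.31 ± 0.12. Between DS and VS, 1 of 22 interneuron genes was higher and 4 lower in DS: the cannabinoid receptor gene Cnr1 was higher by 1.35 ± 0.18 on the log2 scale, while Calb2 (-1.72 ± 0.30), Th (-0.96 ± 0.21) and Crh (-2.89 ± 0.80) were lower.

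Apart from region, the 3 genes of GABA synthesis and transport varied together from library to library. After each region's mean was removed, Pearson's r over 61 libraries was 0.72 between Gad1 and Gad2, 0.78 between Gad2 and Slc32a1 and 0.54 between Gad1 and Slc32a1. These libraries share mice and kits and pool saline with ethanol groups, so the coefficients are descriptions. Vip ran against them, with r from -0.49 to -0.56, and with Sst at 0.51. Pvalb and Lamp5 had r = -0.46.

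Measured the same way over 15370 genes, the nearest gene to Gad2 was Abat (r = 0.78), and Abat was also among the nearest to Slc32a1 (0.77), after the calcium channel gene Cacna2d2 (0.83). Rit2 was nearest to Gad1 (0.75). Pvalb was nearest to Ccdc136 (0.80), Nefh (0.80) and Vamp1 (0.79), of which Nefh encodes the neurofilament heavy chain. Vip had the closest neighbours of all 8, Ccn3 (0.89), Prss12 (0.87) and Serpini1 (0.86). Sst was nearest to Ttc9b (0.74), Lamp5 to Pde8b (0.73) and Reln to D430041D05Rik (0.75).

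The main question was whether ethanol changed these genes, in each region and paradigm. Over 10 comparisons of ethanol with saline, each of the 8 genes was tested 10 times, and 6 of the 80 tests passed FDR below 0.1, with 20 more at an unadjusted p below 0.05. Of the 6 calls, 5 were in DS and 1 in cortex, all after acute ethanol. Over all genes, 5.15% were called in DS and 1.99% in cortex after acute ethanol, and at most 0.0555% in any other ethanol comparison. The share of all genes at an unadjusted p below 0.05 was not pooled, so nothing is drawn from the 20.

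**Figure D3:**
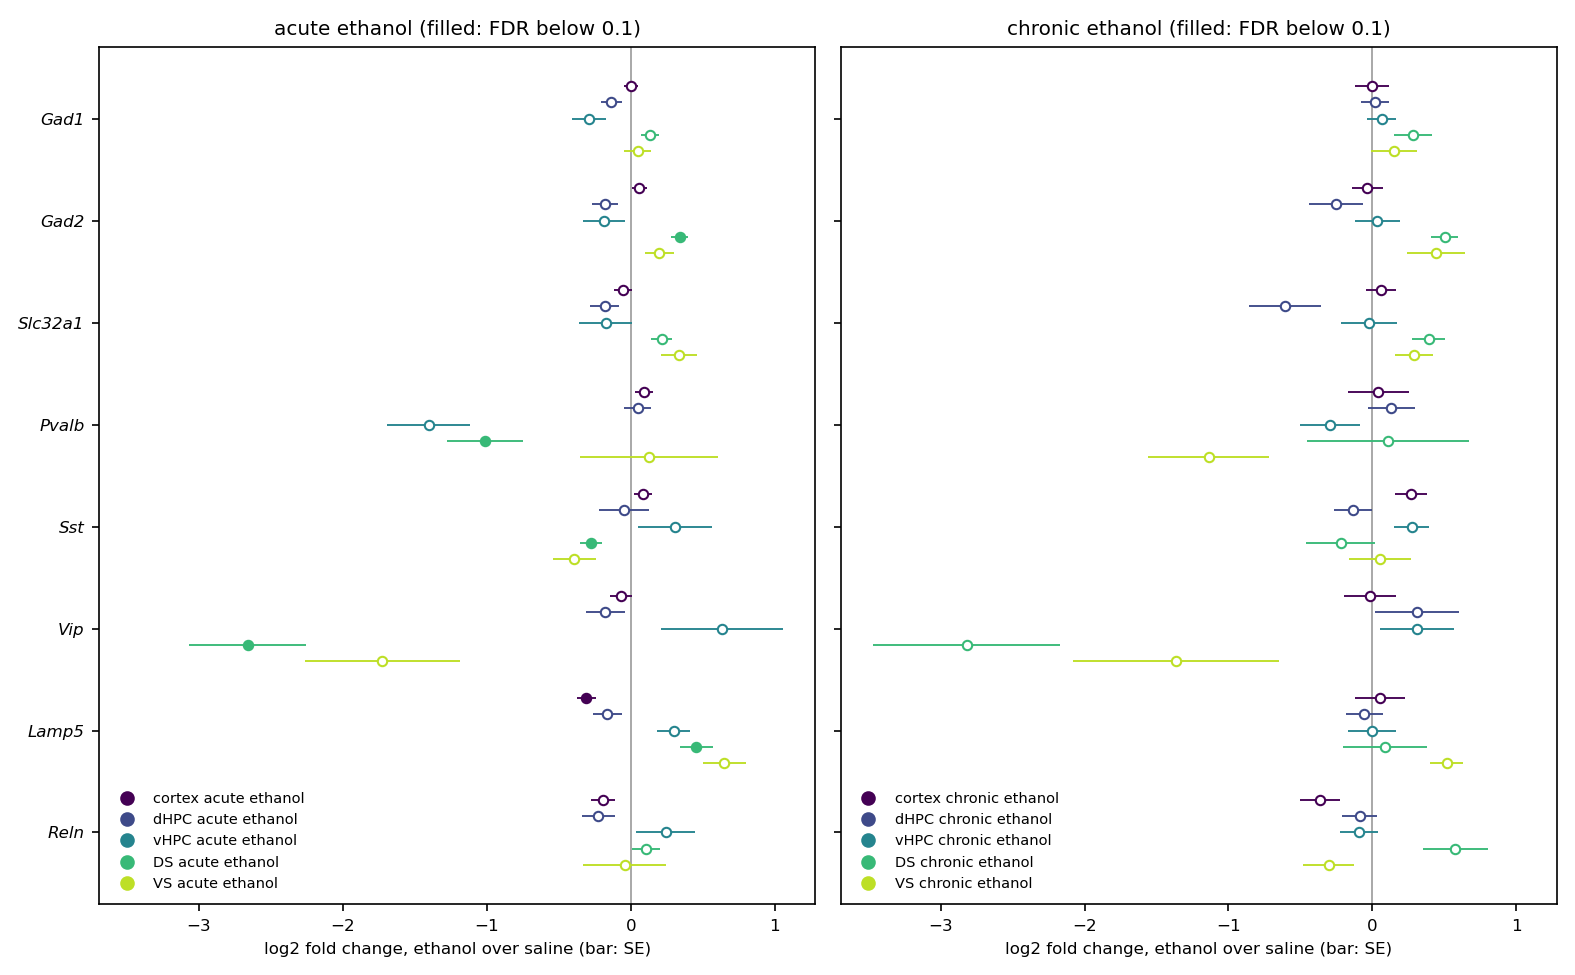
Log2 fold change of ethanol over saline (points, with SE as bars) for each gene in the 5 regions, acute on the left and chronic on the right, filled where FDR was below 0.1. Filled points are Gad2, Pvalb, Sst, Vip and Lamp5 in DS and Lamp5 in cortex, all acute, and Vip in DS lies at -2.82 after chronic ethanol without being called, or at -2.0 without the incomplete saline library.

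In DS after acute ethanol, 5 of the 8 genes were called, against 5.15% of 20495 genes, with Vip, Pvalb and Sst lower and Gad2 and Lamp5 higher. Vip had 7.38, 6.86 and 6.55 CPM in the saline libraries and 0.486, 2.12 and 0.761 in the ethanol libraries. Every ethanol value was below every saline value, a 6.32-fold lower level (log2 fold change -2.66 ± 0.41, FDR = 0.00252). Pvalb had 8.62, 15.4 and 13.5 CPM with saline and 6.97, 3.72 and 7.70 with ethanol, also without overlap, at 2.02-fold lower (-1.01 ± 0.26, FDR = 0.0555). Sst had 105, 107 and 119 CPM with saline and 89.3, 96.7 and 87.8 with ethanol, again apart (-0.28 ± 0.07, FDR = 0.0654).

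Gad2 and Lamp5 were higher. Gad2 had 416, 412 and 401 CPM with saline and 540, 503 and 513 with ethanol, without overlap (0.34 ± 0.06, FDR = 0.00464). Lamp5 had 57.4, 84.5 and 77.4 CPM with saline and 106, 94.5 and 102 with ethanol, also apart (0.46 ± 0.11, FDR = 0.0433). The partners of Gad2 leaned the same way but were not called: Slc32a1 was at 0.21 ± 0.07 (FDR = 0.155) and Gad1 at 0.14 ± 0.06 (FDR = 0.307), both with an unadjusted p below 0.05, and Reln was at 0.11 (FDR = 0.670).

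Vip and Gad2 were called whichever library was left out, with FDR of at most 0.0197 and 0.0270, and without the acute ethanol library of mouse 4 the Vip difference was -3.36. The others were not. Without the acute ethanol library of mouse 3 or of mouse 5, Lamp5 was at FDR = 0.117 and 0.131 and Sst at 0.188 and 0.234. That library of mouse 5 was the deepest of DS, with 46564992 counts against 8149628 to 16018549 in the other DS libraries. The part of its depth in the calls was not tested. Without the acute saline library of mouse 6, Sst was at 0.199 and Pvalb at 0.16, and Pvalb was at 0.191 without the acute saline library of mouse 4 and at 0.145 without the acute ethanol library of mouse 4. When all 4 DS groups shared a fit, none of the 8 was called, with Vip at FDR = 0.414 and Gad2 at 0.333. When that fit left out the incomplete chronic saline library, Vip (FDR = 0.0212) and Gad2 (FDR = 0.0345) were called and the other 6 were not.

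**Figure D4:**
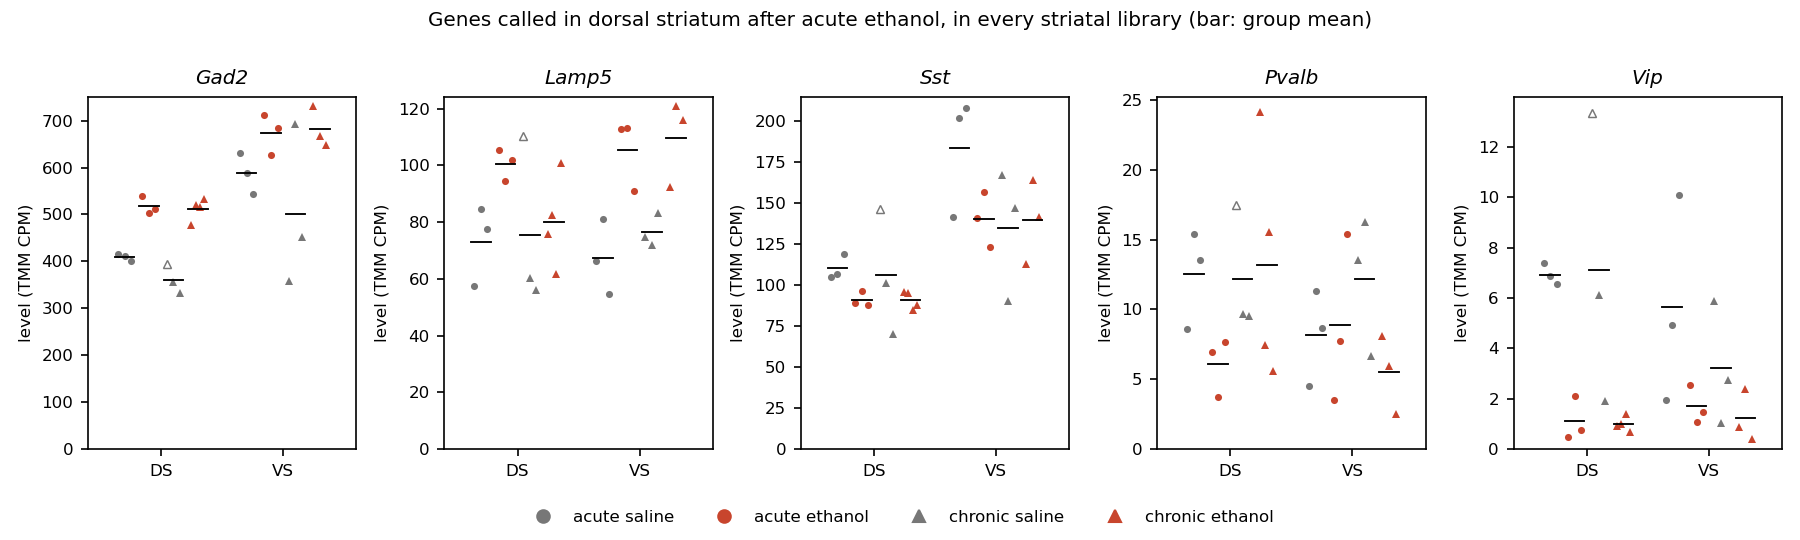
Level (TMM-scaled CPM, linear axis from 0) of the 5 genes called in DS after acute ethanol, in each DS and VS library, with circles for acute, triangles for chronic, grey for saline, red for ethanol, bars at group means and an open triangle for the incomplete DS library. In DS the acute ethanol values of Vip, Pvalb and Sst sit below all acute saline values and those of Gad2 and Lamp5 above them, while in VS the groups overlap except for Lamp5.

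Markers of other cells moved in the same DS libraries. All 8 pallial excitatory neuron genes were called lower after acute ethanol, with a median log2 fold change of -3.23 beside 0.00 over all genes, and their summed level was 422 to 514 CPM in the saline libraries and 28.9 to 113 in the ethanol libraries. Of 12 striatal projection neuron genes, 10 were called higher and none lower (median 0.32), with sums of 7588 to 8927 CPM against 9933 to 10257. Choroid plexus genes were also higher, 2 of 6 by the test, and the part of these shifts in the values of the 8 genes was not tested.

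Over the DS libraries, leaving out the incomplete one, the log level of Vip and the log of the pallial sum had r = 0.89 (n = 12), and over the VS libraries 0.90 (n = 12). In cortex, where both levels were higher, r was -0.30 (n = 12). Pvalb had r = 0.17 with the pallial sum in DS and 0.62 with the sum of thalamic relay neuron genes. These coefficients pool saline and ethanol libraries of both paradigms, so they include differences between groups. The part of pallial genes in the Vip values was not tested.

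**Figure D5:**
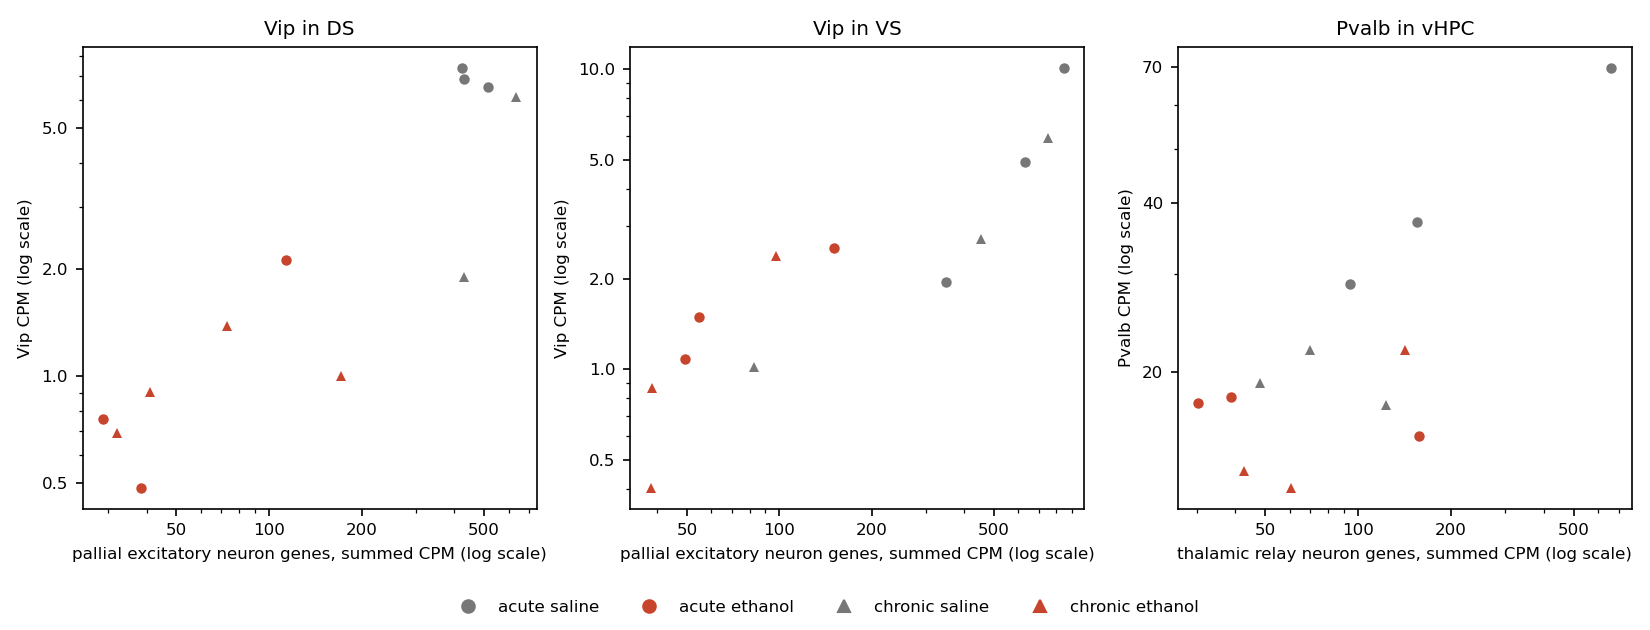
Vip (CPM) against the summed CPM of 8 pallial excitatory neuron genes in DS (12 libraries, without the incomplete one) and VS (12 libraries), and Pvalb against the summed CPM of 6 thalamic relay neuron genes in vHPC (12 libraries), on log axes, with symbols as in the other plots. Libraries high in Vip are high in the pallial sum in both striatal regions, and the vHPC library with the highest Pvalb, 69.7 CPM, has the highest thalamic sum, 663 CPM.

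Among the other interneuron genes in DS after acute ethanol, 5 of 22 were called lower and 2 higher (median -0.10), led by the peptide gene Cck (-2.50 ± 0.24, FDR = 0.00012), Kcnc2 (-1.64 ± 0.17), the corticotropin-releasing hormone binding protein gene Crhbp (-1.65 ± 0.36) and the somatostatin-like peptide gene Cort (-3.19 ± 0.71). The part of the lower pallial excitatory neuron genes in these values was not tested. Of the 16 transcription factors, 1 was called lower, Satb1 (-1.08 ± 0.12), and 2 higher, Dlx6 (0.39 ± 0.09) and Nkx2-1 (0.92 ± 0.27). In the GABA synthesis, transport and breakdown list, Abat (0.35 ± 0.06) and the succinic semialdehyde dehydrogenase gene Aldh5a1 (0.29 ± 0.07) were called higher and the amino acid transporter gene Slc38a2 lower (-0.52 ± 0.08), with 6 of 9 genes at an unadjusted p below 0.05.

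Among the remaining lists in that comparison, 1 of 3 pallidal and reticular thalamic GABAergic neuron genes was called higher and 1 lower, 1 of 5 tested thalamic relay neuron genes was called lower, 1 of 4 tested dentate granule neuron genes higher and 1 of 6 astrocyte genes lower. No oligodendrocyte or microglia gene was called by edgeR, with 1 and 0 of them at an unadjusted p below 0.05. Of the 4 Cajal-Retzius genes only 1 was tested, and it was neither called nor at an unadjusted p below 0.05.

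In VS after acute ethanol, none of the 8 genes was called, against 0.0399% of 20032 genes, with 4 at an unadjusted p below 0.05. DESeq2 called 1, Lamp5, and the share of all genes it called is not given here. Lamp5 had 66.2, 81.1 and 54.8 CPM with saline and 113, 113 and 90.8 with ethanol, without overlap (0.65 ± 0.15, FDR = 0.285, DESeq2 FDR = 0.0192). Slc32a1 was also apart, at 275, 283 and 228 CPM against 307, 381 and 303 (0.33 ± 0.12, FDR = 0.574). Vip had 1.95, 4.92 and 10.1 CPM with saline and 2.53, 1.08 and 1.49 with ethanol, which overlapped (-1.73 ± 0.54, FDR = 0.494), and Sst was at -0.39 ± 0.15 (FDR = 0.593). Pallial excitatory neuron genes summed to 349 to 845 CPM with saline and 49.1 to 151 with ethanol in these libraries, with Emx1 at 0 in the acute ethanol library of mouse 3, and their part in the Vip values was not tested. Gad2 was at 0.20, Pvalb at 0.13, Gad1 at 0.05 and Reln at -0.04.

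In cortex after acute ethanol, 1 of the 8 genes was called, against 1.99% of 25905 genes. Lamp5 had 297, 278 and 272 CPM with saline and 231, 205 and 249 with ethanol, without overlap, and was 1.24-fold lower (-0.31 ± 0.07, FDR = 0.0493). The call was lost without the acute ethanol library of mouse 4 (FDR = 0.202) or the acute saline library of mouse 2 (0.153) or mouse 4 (0.140), and when all 4 cortex groups shared a fit (0.691). Reln leaned lower with overlapping groups, 81.3, 91.8 and 76.8 CPM against 65.1, 80.2 and 73.4 (-0.19 ± 0.08, FDR = 0.349). Pvalb (0.09), Sst (0.08), Gad2 (0.06), Gad1 (0.00), Slc32a1 (-0.05) and Vip (-0.07) overlapped between groups and were not called.

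In the same cortex libraries, the interneuron gene Calb1 was called lower (-0.33 ± 0.07, FDR = 0.0493), as was Nr2f2, a transcription factor of caudally derived interneurons (-0.60 ± 0.11, FDR = 0.0259), and no gene of either list was called higher. Of 10 GABA synthesis, transport and breakdown genes, 1 was at an unadjusted p below 0.05, Slc38a2 (-0.19 ± 0.08, FDR = 0.328), and none was called by edgeR. Calb1 is also expressed in upper-layer excitatory neurons, and of the pallial excitatory neuron genes the upper-layer gene Cux2 was lower (-0.37 ± 0.06) and Neurod6 higher (0.31 ± 0.07). Oligodendrocyte genes summed to 1839 to 2084 CPM with saline and 2153 to 2870 with ethanol, with 5 of 6 called higher, and 3 of 12 striatal projection neuron genes were called lower, among them Penk (-0.46 ± 0.11) and Pde10a (-0.32 ± 0.08). Their part in the Lamp5 difference was not tested.

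In vHPC after acute ethanol, none of the 8 genes was called, 3 were at an unadjusted p below 0.05 and DESeq2 called 1. Over all genes edgeR called 0% of 19916 genes, with 2374 at an unadjusted p below 0.05 and 578 called by DESeq2. Pvalb had 69.7, 37.0 and 28.7 CPM with saline and 18.1, 15.4 and 17.7 with ethanol, without overlap (-1.41 ± 0.29, FDR = 0.207). DESeq2 called it (FDR = 0.000179), and edgeR did without the acute saline library of mouse 6 (-1.65, FDR = 0.0593). Without that library, whose Sst was the highest of the vHPC saline libraries at 129 CPM, edgeR called 301 genes. Sst was then called higher with ethanol (0.71 ± 0.13, FDR = 0.0814), against 0.31 ± 0.26 with the library kept. Its Pvalb was the lowest of the acute saline libraries. Leaving it out therefore widens both differences by construction, and neither call adds support. Without the acute saline library of mouse 2, the Pvalb difference was -0.95. Thalamic relay neuron genes summed to 663, 155 and 94.2 CPM with saline and 38.8, 157 and 30.3 with ethanol, highest in the library with the highest Pvalb, and the pallidal and reticular thalamic list summed to 52.7 to 83.5 CPM against 29.1 to 50.1. Their part in the Pvalb difference was not tested.

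Gad1 in vHPC was also apart, at 376, 316 and 273 CPM with saline and 266, 255 and 268 with ethanol (-0.29 ± 0.12, FDR = 0.384), and so was Lamp5, which was higher with ethanol, at 33.1, 33.6 and 33.5 CPM against 28.6, 23.2 and 29.8 with saline (0.30 ± 0.11, FDR = 0.369). With all libraries Vip was at 0.63, Reln at 0.24, Slc32a1 at -0.18 and Gad2 at -0.19. In the same libraries all 5 dentate granule neuron genes were higher with ethanol at an unadjusted p below 0.05, none of them called (median 1.27), with sums of 150 to 310 CPM with saline and 400 to 607 with ethanol, and their part in these values was not tested. In dHPC after acute ethanol, with 4 ethanol mice, none of the 8 genes was called by edgeR or DESeq2 and none was at an unadjusted p below 0.05, against 0.042% of 26215 genes called. Their log2 fold changes were -0.23 for Reln, -0.18 for Slc32a1, Gad2 and Vip, -0.16 for Lamp5, -0.14 for Gad1, -0.05 for Sst and 0.05 for Pvalb, and all groups overlapped. All 12 striatal projection neuron genes were lower with ethanol in these libraries, 11 at an unadjusted p below 0.05 and none called (median -0.87), with sums of 930 to 1402 CPM with saline and 618 to 972 with ethanol, and their part in these values was not tested.

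After chronic ethanol none of the 8 genes was called by edgeR in any region. In DS, where 0% of 20078 genes were called, with 887 at an unadjusted p below 0.05 and 205 called by DESeq2, Vip had 13.3, 6.13 and 1.91 CPM with saline and 0.902, 1.00, 1.39 and 0.695 with ethanol. All 4 ethanol values lay below the saline values (-2.82 ± 0.65, FDR = 0.969). Gad2 lay above them without overlap, at 395, 357 and 333 CPM with saline and 477, 521, 515 and 534 with ethanol (0.50 ± 0.09), and Slc32a1 did too, at 219, 167 and 186 against 236, 259, 249 and 256 (0.39 ± 0.11). Reln was at 0.58 ± 0.23 with overlapping groups. The FDR of Gad2, Slc32a1 and Reln was 0.969 as well. Gad1 was at 0.28, Pvalb at 0.11, Lamp5 at 0.09 and Sst at -0.22. All 12 striatal projection neuron genes were higher with ethanol, 3 at an unadjusted p below 0.05 and none called (median 0.42), with sums of 5831 to 7906 CPM with saline, the incomplete library included, and 7212 to 11191 with ethanol, and their part in the Gad2 and Slc32a1 values was not tested.

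The first saline value given for each DS gene belongs to the incomplete library of mouse 2. DESeq2 called Gad2 (FDR = 3.28e-06), Vip (0.0106) and Slc32a1 (0.0561). In a fit of all 4 DS groups without that library, Gad2 (0.57, FDR = 0.00576) and Slc32a1 (0.51, FDR = 0.033) were called and Vip was at -2.0 with FDR = 0.137, and with the 2 remaining chronic saline libraries the chronic comparison alone called none. Pallial sums were 636 and 430 CPM in those 2 libraries and 32.0 to 171 with ethanol, with Neurod2 at 0 in the chronic ethanol library of mouse 1, and their part in the Vip values was not tested.

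In VS after chronic ethanol, 0% of 20331 genes were called (2023 at an unadjusted p below 0.05, 364 by DESeq2). Lamp5 had 74.9, 72.0 and 83.1 CPM with saline and 92.2, 121 and 116 with ethanol, without overlap (0.52 ± 0.12, FDR = 0.248, DESeq2 FDR = 0.0183). Slc32a1 was apart at 221, 333 and 276 CPM against 347, 334 and 333, with a log2 fold change of 0.29 ± 0.14, which was not called. Pvalb overlapped, at 13.5, 16.3 and 6.65 CPM against 8.12, 5.97 and 2.55 (-1.14 ± 0.42, FDR = 0.425). Vip, at 5.89, 1.02 and 2.73 CPM against 0.870, 2.39 and 0.403, overlapped too (-1.36, FDR = 0.569), and pallial sums were 82.7 to 754 CPM against 38.1 to 97.5. Gad2 was at 0.44 ± 0.20, Gad1 at 0.15, Sst at 0.05 and Reln at -0.30. This comparison turned on the chronic saline library of mouse 5, without which edgeR called 615 genes and, of the 8, Gad2 (0.75 ± 0.11, FDR = 0.0137) and Slc32a1 (0.44 ± 0.10, FDR = 0.0725). That library had the highest Gad2 and Slc32a1 of the chronic saline VS libraries, so leaving it out raises both differences by construction. All 12 striatal projection neuron genes were higher with ethanol, 3 at an unadjusted p below 0.05 and none called (median 0.26), with sums of 4380 to 7431 CPM with saline and 7108 to 7459 with ethanol. The part of the striatal and pallial genes in these values was not tested.

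In cortex after chronic ethanol, 0% of 25644 genes were called (2656 at an unadjusted p below 0.05, 156 by DESeq2, none of them among the 8). Reln had 92.5, 71.2 and 75.5 CPM with saline and 59.4, 52.0 and 73.1 with ethanol (-0.36 ± 0.14, FDR = 0.447), and Sst 87.9, 120 and 97.3 against 115, 126 and 123 (0.27 ± 0.11, FDR = 0.472). Both overlapped. Lamp5, which was lower after acute ethanol, had 297, 205 and 222 CPM against 242, 197 and 304 (0.05, FDR = 0.935). Slc32a1 was at 0.06, Pvalb at 0.04, Gad1 at 0.00, Vip at -0.02 and Gad2 at -0.03.

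In dHPC after chronic ethanol, 0% of 25958 genes were called (2136 at an unadjusted p below 0.05, 223 by DESeq2, none among the 8). Slc32a1 had 79.3, 151 and 70.3 CPM with saline and 59.0, 68.8 and 68.8 with ethanol, apart by little (-0.61 ± 0.25, FDR = 0.591). Without the chronic saline library of mouse 5, the difference was -0.19. All 12 striatal projection neuron genes were lower with ethanol, 10 at an unadjusted p below 0.05 (median -2.34), with sums of 494 to 3681 CPM with saline and 449 to 615 with ethanol, and all 6 oligodendrocyte genes were lower at an unadjusted p below 0.05 (median -0.35), none of them called. Their part in the Slc32a1 value was not tested. Vip was at 0.31, Pvalb at 0.13, Gad1 at 0.02, Lamp5 at -0.06, Reln at -0.09, Sst at -0.13 and Gad2 at -0.25. In vHPC after chronic ethanol, where 0.0555% of 19814 genes were called, none of the 8 was called by either tool, and Sst, at 68.2, 73.8 and 72.6 CPM against 80.7, 103 and 75.5, was apart (0.27 ± 0.12, FDR = 0.524). Vip was at 0.31, Gad1 at 0.07, Gad2 at 0.03, Lamp5 at 0.00, Slc32a1 at -0.02, Reln at -0.09 and Pvalb at -0.29.

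Whether acute and chronic ethanol differed was tested as an interaction within each region. None of the 40 tests passed with edgeR, and DESeq2 called none either. Over all genes, 0% of 26540 were called in cortex (2174 at an unadjusted p below 0.05, 21 by DESeq2), 0% of 26850 in dHPC (1202 and 2), 0% of 20618 in vHPC (2381 and 417), 0% of 21120 in DS (481 and 3) and 0% of 20901 in VS (965 and 4). The 2 tests at an unadjusted p below 0.05 were both in vHPC, where the chronic effect was above the acute effect by 1.11 ± 0.40 for Pvalb (FDR = 0.347) and 0.36 ± 0.16 for Gad1 (FDR = 0.411). Without the acute saline library of mouse 6, whose Pvalb was the lowest of the acute saline vHPC libraries, Pvalb was at 1.35 with FDR = 0.0972. For Vip in DS, acute and chronic ethanol gave -2.66 and -2.82, and the difference between them was -0.19 ± 0.88. Without the incomplete saline library, the chronic value was -2.0 and the difference turned to 0.65 ± 0.71.

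Taken gene by gene over the 10 ethanol comparisons, Vip spanned the widest range, from -2.82 to 0.63 on the log2 scale, higher in 3 and lower in 7. Pvalb ran from -1.41 to 0.13, Slc32a1 from -0.61 to 0.39, Lamp5 from -0.31 to 0.65 and Reln from -0.36 to 0.58. Sst ran from -0.39 to 0.31, Gad2 from -0.25 to 0.50 and Gad1 from -0.29 to 0.28. Within a paradigm the regions come largely from the same mice, so that values in DS and VS, for example, are not independent.

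Counting could bear on levels in cortex and dHPC. Transcripts on the opposite strand overlap Slc32a1 and Reln, and the cortex and dHPC libraries do not keep strand although all were counted as if they did. In those regions Gm14205, which overlaps Slc32a1, had a median of 23.6% and 22.9% of the Slc32a1 count, and at most 0.299% in any library of the directional regions. Gm10475, which overlaps Reln, had 7.83% and 7.21% of the Reln count there, and a median of 0% in vHPC, DS and VS. Gm14204, also opposite Slc32a1, had medians of 5.53% to 7.28% in all 5 regions, and Gad1os at most 0.277% of the Gad1 count in any library. Whether the Gm14205 and Gm10475 counts in cortex and dHPC are reads of Slc32a1 and Reln was not tested. The strand setting applied to every gene of those libraries. Levels of all 8 genes in cortex and dHPC are therefore not on quite the same footing as in the other regions. Comparisons within cortex and dHPC share the setting.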

How the data were processed

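Poly(A) RNA of 62 brain samples from 16 mice was sequenced. Reads were trimmed with Cutadapt 5.0 and aligned to GRCm39 with STAR 2.7.10a, and the authors deposited raw counts per gene from featureCounts 2.0.6, made with Ensembl annotation, a reversed strand setting and multimapping reads included. Low counts were mostly even (67.6% to 73.7% in cortex), so the mates of a pair may have been counted one by one and a count is not a molecule. The deposited isoform counts served only to find each gene's main isoform for an alternative length. Cortex and dHPC carry batch label 1, with a kit that does not keep strand, and vHPC, DS and VS were prepared with a directional kit. The 8 genes and all gene lists were chosen with earlier results of these data known.

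Each comparison was fitted over every gene that reached 5 counts in 2 or more libraries of some group, using edgeR 4.0.16 (TMM scaling, quasi-likelihood F test, FDR threshold 0.1) in R 4.3.3, on the samples it compares, with DESeq2 1.42.0 among the alternatives. Region comparisons used saline mice within a batch, with paradigm as a term. Same-numbered libraries of 2 regions came from the same mouse, and their deviations had correlations of -0.06 to 0.26 over 19 pairs. Exon length is the count table's own length column. Members had full statistics where FDR passed or the unadjusted p was below 0.05, and for interactions only those at an unadjusted p below 0.05 and Vip in DS are named. Up to 4 genes of a list, those with the smallest p, were named, except some that are not reported here. Likeness was Pearson's r of log CPM after removing region means, and 3 genes were taken for each member. Within-group replicates were compared by chi-square over 66 pairs, and none agreed within sampling noise. Mice are separate animals. The scripts were tested on simulated data. Other settings tried were DESeq2's size factors, no filter on low counts, at least 10 counts in every sample, a replicate or mouse block, a joint fit of each region's groups, complete chromosomes only and each library left out in turn.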

Additional observations from a re-analysis of the deposited data

Results flagged for a closer look

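Some saline libraries stood apart from the other 5 of their region, in a search of 56 groups that flagged 4, where chance alone flags about 1 in 20 groups. Slc32a1 in cortex was lowest at 84.4 CPM in the chronic saline library of mouse 3, with the nearest at 104 and the highest at 111. In dHPC, Slc32a1 was highest at 151 CPM in the chronic saline library of mouse 5, with the nearest at 96.7. Pvalb in vHPC was highest at 69.7 CPM in the acute saline library of mouse 2, with the nearest at 37.0. Sst in vHPC was highest at 129 CPM in the acute saline library of mouse 6, with the nearest at 73.8.

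For 3 genes, every ethanol library lay on one side of its saline libraries in one region and on the other side in another. Groups this small can lie apart by chance, and the share of all genes that do so was not counted. Gad1 after acute ethanol had a log2 fold change of 0.14 in DS, where its groups were apart, and -0.29 in vHPC. Slc32a1 after chronic ethanol was at 0.39 in DS and 0.29 in VS and at -0.61 in dHPC. Lamp5 after acute ethanol was at -0.31 in cortex, against 0.65 in VS, 0.46 in DS and 0.30 in vHPC. The differences between these regions were not tested, and for Slc32a1 and Lamp5 the regions on either side also differ in library kit and sequencer, which cannot be told apart from region.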

How the results depend on the processing

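Of 80 tests of ethanol against saline, 6 were called. DESeq2 called 13, leaving out the filter on low counts gave 14, and fitting all 4 groups of a region together gave 0. The share of all genes called at each setting is not given here. DESeq2 called more genes than edgeR over the whole table in several comparisons above, so its higher total is not particular to the 8. The added fit, chosen after seeing the data, that left the incomplete library out of the DS groups gave 5, and the remaining settings 5 to 7. Leaving out 1 library at a time gave 4 to 8 calls for ethanol, 0 to 1 for the paradigm interaction and 20 to 22 for region, where 21 of 32 were called and other settings gave 19 to 26. The interaction had 0 calls, and 1, Pvalb in vHPC, without the low-count filter or without the acute saline vHPC library of mouse 6. No called value changed sign under any setting. With the length of each gene's main isoform, added after seeing the data, 20 of 40 levels per kb moved by more than the spread between mice. The cause of these shifts was not tested. Single genes were followed only for the 26 ethanol results at FDR below 0.1 or an unadjusted p below 0.05. Fits that left out 1 library apart, 127 refits kept the result on its side of the threshold, 18 moved it past and 9 lost it.

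Replicate numbers of saline and ethanol mice name different animals: over 14 pairs correlations were -0.33 to 0.30, and 4 passed 0.1. With the replicate block, 3 ethanol comparisons could be refitted and the total was 7 calls, with Reln in cortex after acute ethanol added. With the mouse block, region comparisons gave 23 calls. Vip in DS could not be tested with at least 10 counts in every sample, and shallow striatal libraries limit its precision.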
